A study of Mus musculus with 16 samples.

Results

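Mouse genes named Zfp and a number encode zinc finger proteins, most of them DNA-binding proteins of the C2H2 class, and they were followed here through the 2 subsets of myeloid-derived suppressor cells (MDSCs) of tumor-bearing wild-type (WT) and Nlrp3-/- mice. Members are the rows of the count files whose symbol is Zfp followed by a digit, without Zfp36, Zfp36l1, Zfp36l2 and Zfp36l3, which belong to the CCCH class of RNA-binding proteins, and without pseudogene symbols that end in -ps. Of 368 such symbols, 4 were left out by name and 2 as pseudogenes. A member also needed 10 or more counts in at least 8 of the 16 libraries, a rule that uses neither genotype nor subset, and 193 of the 362 remaining symbols met it, against 9746 of all 24421 symbols in the files. Of the 169 that did not, 28 had no count in any library. The minimum divided a continuum: 9 members had 10 counts in exactly 8 libraries and means of 1.46 to 4.31 CPM (counts scaled to the total of the library with TMM factors), while 9 symbols just outside had them in 7 libraries and means of 1.58 to 2.44 CPM.

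The libraries form 4 groups of 4 mice. M-MDSCs, monocyte-like cells sorted as CD11b high Ly6C+ Ly6G-, and G-MDSCs, neutrophil-like cells sorted as CD11b high Ly6C- Ly6G+, came from the spleens of mice labelled C57BL/6 (the study's methods give its purchased WT mice as C57BL/6J and the Nlrp3-/- mice, from another source, as on a C57BL/6 background) with B16.F10 melanoma, a transplanted skin tumor line of the same strain. Both subsets of each of 8 mice were sequenced, 4 WT and 4 Nlrp3-/-, so the subsets of a genotype share their mice. Every group received the same tumor line. The study reports lower tumor volume and weight in Nlrp3-/- mice, with more M-MDSCs and fewer G-MDSCs in their spleens. Genotype and tumor size can thus not be told apart here. In Nlrp3-/- mice an EGFP cassette with an SV40 poly(A) signal interrupts Nlrp3 at its start codon in every cell of the body, so a difference between genotypes is not limited to what the gene does in MDSCs. The study used mice of 6 to 12 weeks, matched for sex and age, and analysed tumors on day 15 unless stated otherwise; no day was given for these libraries. In bulk sorted cells, fewer cells of a type and less RNA per cell cannot be told apart.

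A C2H2 finger is a short fold held by a zinc ion between a pair of cysteines and a pair of histidines, and arrays of such fingers read DNA, or RNA in a few proteins. The largest class in mammals also carries a KRAB domain, which recruits KAP1 (the product of Trim28) and through it the histone methyltransferase Setdb1, HP1 proteins and the NuRD complex. Such proteins are known for silencing retroelements and for keeping imprints, whereas members without KRAB include splicing, ribosome and ubiquitin factors and cofactors of transcription.

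The labels were checked first. Nlrp3 stood at 40.6, 88.7, 53.1 and 79.7 CPM in WT M-MDSCs and at 0.513 to 1.87 CPM in Nlrp3-/- M-MDSCs, and at 251 to 330.3 CPM in WT G-MDSCs against 5.50 to 13.6 CPM in Nlrp3-/- G-MDSCs. All 7 monocyte markers were lower and all 9 tested neutrophil markers higher in G-MDSCs than in M-MDSCs of both genotypes. The libraries held 2295967 to 6079866 counts, of which the Zfp genes took 0.431 to 0.497% in M-MDSCs and 0.313 to 0.383% in G-MDSCs. WT M-MDSC library 2 stood apart, with a summed neutrophil marker level of 8713 CPM against 1413 to 1844 CPM in the other WT M-MDSC libraries and a summed progenitor and proliferation marker level of 713 against 224 to 236 CPM. Summed dendritic cell and macrophage markers (12 genes) moved with genotype, from 145 to 173 CPM in WT to 254 to 394 CPM in Nlrp3-/- M-MDSCs and from 289 to 447 CPM to 669 to 816 CPM in G-MDSCs, with 5 genes called higher in each subset. NK cell markers (6 genes) summed to 29.6 to 67 CPM in WT and 87.8 to 131 CPM in Nlrp3-/- M-MDSCs, and to 24 to 42.4 CPM and 52.3 to 86.7 CPM in G-MDSCs, with 1 called higher in each and Klra8 at 0 in all 4 groups. Monocyte markers (7 genes) overlapped in M-MDSCs, with 1 called lower. In G-MDSCs they stood at 631 to 917 CPM in WT and 1003 to 1201 CPM in Nlrp3-/- mice, with 1 called higher. Neutrophil markers summed to 1413 to 8713 CPM in WT and 2164 to 2533 CPM in Nlrp3-/- M-MDSCs, with 2 called higher. The WT M-MDSC libraries other than library 2 all lay below the Nlrp3-/- range. In G-MDSCs neutrophil markers overlapped, at 113758 to 150047 CPM in WT and 139690 to 174458 CPM in Nlrp3-/- mice, with 1 called lower. Progenitor and proliferation markers (9 genes, Cd34 among them) summed to 224 to 713 CPM in WT and 97.1 to 228 CPM in Nlrp3-/- M-MDSCs, and to 112 to 391 CPM and 47.8 to 125 CPM in G-MDSCs, with 2 called lower in each. The part of these markers in the genotype results that follow was not tested.

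A search of the translated GENCODE transcripts for 15 conserved residues of the KRAB A box, at least 10 of them present, found the domain in 80 of the 193 members and not in 113. Among the symbols that missed the count minimum, 98 had a match and 64 did not. Members with KRAB carried more fingers (median 11 against 7), had transcripts of lower GC content (median 41.6% against 51.2%) and similar length (median 3683 against 4006 bases), and were expressed at lower levels (median 6.34 against 13.3 CPM). Zfp142 had the most finger matches, 36, and 5 members, Zfp330, Zfp503, Zfp703, Zfp839 and Zfp935, had none. The libraries read the 3′ end of each transcript, so levels were not divided by length. Member means ran from 1.46 to 282 CPM with a median of 9.66, and 21 members exceeded 50 CPM while 101 stayed under 10 CPM. For 9 members over 10% of the 50-base words of the 3′ end also occurred in another gene, among them Zfp638 (26.4%), Zfp706 (38.6%), Zfp955a and Zfp955b (72% each) and Zfp935 (100%), and the counts of these genes may include reads of their copies.

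RefSeq promoter windows, here the 250 bases before the annotated start on GRCm38.p6, were at hand for 158 members and are shown for 5 genes of the genotype results: 3 of those lower in both subsets of Nlrp3-/- mice, 1 higher in M-MDSCs (Zfp219) and 1 higher in G-MDSCs (Zfp715, a KRAB gene). Capitals mark matches on either strand to GGGCGG (the GC box of SP1), CCAAT (NF-Y), GCATGCGC (NRF1) or TATAAA (the TATA box), and where matches overlap, as in the run CCAATTGG of Zfp106, both lie in the capitals.

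Zfp326, chr5:105876318-105876567, plus strand: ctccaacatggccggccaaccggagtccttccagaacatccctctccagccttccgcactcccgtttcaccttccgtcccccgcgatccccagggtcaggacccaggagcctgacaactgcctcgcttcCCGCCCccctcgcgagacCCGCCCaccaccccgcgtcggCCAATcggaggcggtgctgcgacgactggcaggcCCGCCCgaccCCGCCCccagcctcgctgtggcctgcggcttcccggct

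Zfp106, chr2:120563860-120564109, minus strand: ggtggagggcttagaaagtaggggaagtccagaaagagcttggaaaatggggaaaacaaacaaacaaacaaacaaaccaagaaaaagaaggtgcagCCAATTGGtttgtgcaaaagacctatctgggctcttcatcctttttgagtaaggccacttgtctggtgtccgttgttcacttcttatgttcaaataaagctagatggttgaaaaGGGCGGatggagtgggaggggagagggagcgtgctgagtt

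Zfp830, chr11:82764095-82764344, plus strand: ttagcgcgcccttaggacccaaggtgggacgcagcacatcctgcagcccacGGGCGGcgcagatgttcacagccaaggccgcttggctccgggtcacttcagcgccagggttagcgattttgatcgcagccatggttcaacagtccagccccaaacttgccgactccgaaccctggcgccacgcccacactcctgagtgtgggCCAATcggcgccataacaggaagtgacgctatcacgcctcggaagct

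Zfp219, chr14:52020734-52020983, minus strand: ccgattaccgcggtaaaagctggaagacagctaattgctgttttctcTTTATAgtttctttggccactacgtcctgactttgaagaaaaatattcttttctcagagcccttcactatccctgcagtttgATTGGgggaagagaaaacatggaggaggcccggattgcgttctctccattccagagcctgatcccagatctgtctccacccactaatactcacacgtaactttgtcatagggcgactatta

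Zfp715, chr7:43313301-43313550, minus strand: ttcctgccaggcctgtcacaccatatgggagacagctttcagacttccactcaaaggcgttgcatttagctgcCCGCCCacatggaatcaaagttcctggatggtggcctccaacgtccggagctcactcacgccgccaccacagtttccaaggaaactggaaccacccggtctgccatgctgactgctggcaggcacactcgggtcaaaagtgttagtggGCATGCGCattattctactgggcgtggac

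GGGCGG was found in 49.4% of the 158 member promoters and in 32.9% of all 27025 promoters, and CCAAT in 48.1% and 34.5%. Matches to CCGGAAG (ETS factors) were in 15.8% and 7.05%, to GCATGCGC in 5.06% and 2.32%, to TGACGTCA (the cAMP response element) in 5.06% and 1.62%, to AAGATGGC (YY1) in 1.90% and 1.59%, and to TTTCCCGC (E2F) in 1.27% and 0.929%. TATAAA was rarer in members, 5.70% against 13%. The promoters of members were also richer in GC (median 56% against 52%), which the GC-rich words share. Of the 6 promoters at hand for genes lower in both subsets, 4 held GGGCGG and 4 held CCAAT. A match says only that these letters occur in the window.

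In M-MDSCs, 10 of 192 tested Zfp genes were lower and 3 were higher in Nlrp3-/- than in WT mice, where a call needs an FDR under 0.05 by edgeR's quasi-likelihood test and a fold change above 1.5. Over all 9986 genes tested, 7.1% were lower and 3.51% higher. Those lower were Zfp830, Zfp608, Zfp326, Zfp131, Zfp91, Zfp609, Zfp106, Zfp280d, Zfp451 and Zfp397, and those higher were Zfp219, Zfp385a and Zfp524. All 13 lack a KRAB match. The median log2 fold change of the 192 was 0.10, against 0.07 for all genes. The 4 Nlrp3-/- libraries lay below the 4 WT libraries for 18 members and above them for 14, against 11.7% and 7.58% of all genes. Scaling by library size alone, which raised the median of all genes to 0.17, turned the split to 8 lower and 12 higher, as it did over all genes (5.7% lower and 6.85% higher). The counts also rested on single libraries. Without WT library 2 they were 8 lower and 1 higher, without WT library 4 they were 6 and 0, without Nlrp3-/- library 1 they were 13 and 10, without library 3 they were 7 and 1, and without library 4 they were 5 and 1.

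In G-MDSCs the calls were more numerous, with 22 of 167 tested members lower and 7 higher in Nlrp3-/- mice, against 11.7% and 4.7% of all 9273 genes tested. Zfp608, Zfp131, Zfp292, Zfp638, Zfp326 and Zfp106 had the smallest p among those lower, followed by Zfp830, Zfp280d, Zfp91, Zfp62, Zfp148, Zfp609, Zfp952, Zfp800, Zfp516, Zfp472, Zfp568, Zfp445, Zfp318, Zfp322a, Zfp407 and Zfp266. Zfp715, Zfp296, Zfp592, Zfp865, Zfp869, Zfp771 and Zfp523 were higher. Both groups of 4 stayed apart for each of these 29 genes except Zfp445, and over the whole family 26 members were lower and 16 higher without overlap, against 12.3% and 12% of all genes. The median of the 167 was -0.03 and that of all genes 0.03. Library size scaling (median of all genes 0.16) gave 16 lower and 12 higher, against 9.21% and 8.55% of all genes. A model of all 16 libraries, with TMM factors from all of them (median of all genes 0.10), called 24 of 193 members lower and 15 higher. Over all 10696 genes of that model 1079 were lower and 828 higher. Leaving out WT library 2 or 4 gave 16 lower with 4 or 3 higher, and leaving out Nlrp3-/- library 2, 3 or 4 gave 15, 16 or 15 lower with 2, 4 or 3 higher.

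**Figure D1:**
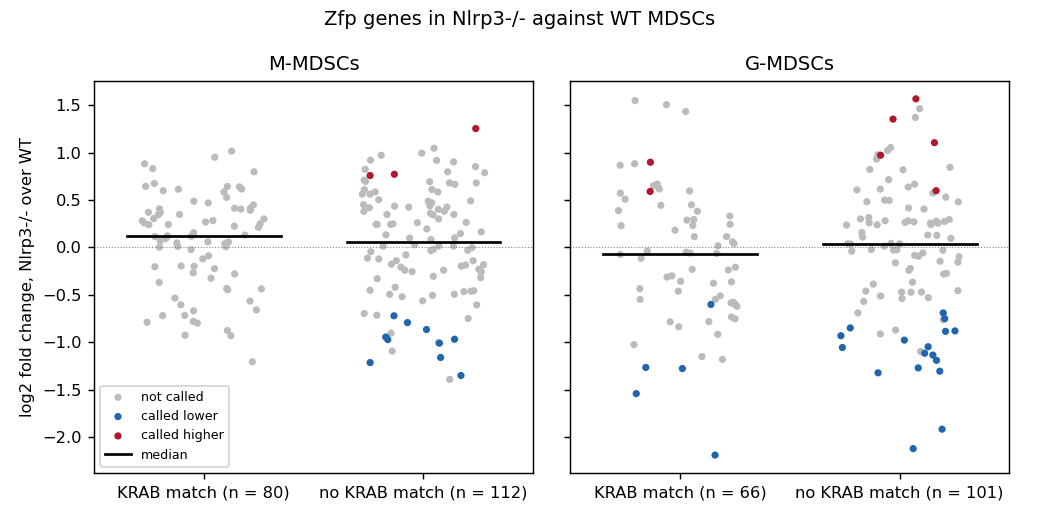
Log2 fold changes of the tested Zfp genes in Nlrp3-/- over WT mice (vertical axis), split by KRAB match (80 and 112 genes in M-MDSCs, 66 and 101 in G-MDSCs). Each point is 1 gene, blue called lower, red called higher and grey not called, and the black bar is the median: in M-MDSCs the 13 called genes all sit on the side without KRAB.

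Of the genes called, 8 were lower in both subsets: Zfp106, Zfp131, Zfp280d, Zfp326, Zfp608, Zfp609, Zfp830 and Zfp91. On mm10 they lie at chr2:120506820-120563843 (Zfp106), chr13:119765187-119790889 (Zfp131), chr9:72274860-72363777 (Zfp280d), chr5:105876565-105915818 (Zfp326), chr9:65692391-65827564 (Zfp609), chr11:82764345-82765935 (Zfp830) and chr19:12763660-12796126 (Zfp91), with Zfp608 on chromosome 18, and no pair of them shares a run of neighbouring members. They make up 80% of the M-MDSC list and 36.4% of the G-MDSC list. No member was called higher in both by edgeR's quasi-likelihood test, while DESeq2 called Zfp219, Zfp524 and Zfp771 higher in both, and none was called in opposite directions. The same mice gave both subsets, so the lists are not independent. All 8 were also called lower in both by DESeq2, by edgeR's exact test, with library size scaling and in a model of all 16 libraries. With the replicate number as a block 5 stayed lower in both (Zfp131, Zfp326, Zfp608, Zfp830 and Zfp91), while all 8 stayed lower in G-MDSCs. Offsets for GC content and length, described below, left 6 lower in both, and block and offsets together left 0.

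Zfp326, a subunit of the DBIRD complex that couples transcript elongation to splicing, stood at 80.7, 90.4, 82.8 and 88.6 CPM in WT M-MDSCs and at 35.8, 52.8, 38 and 45.7 CPM in Nlrp3-/- M-MDSCs. In G-MDSCs its levels were 31.3, 54, 37.8 and 38.5 CPM in WT and 13.6, 18.2, 19 and 18.6 CPM in Nlrp3-/- mice. The genotypes did not overlap in either subset, and on the log2 scale, with the SE of the fold change after each ±, the gene fell by 0.97 ± 0.16 (FDR 0.00436) in M-MDSCs and by 1.31 ± 0.23 (FDR 0.00195) in G-MDSCs. Zfp830, a splicing factor, measured 35.4, 43.8, 40.4 and 43.8 CPM in WT and 15.2, 18.7, 22.3 and 15.9 CPM in Nlrp3-/- M-MDSCs. Its G-MDSC values were 54.7, 51, 43.8 and 49.3 CPM in WT and 30.7, 24.4, 22.1 and 18.6 CPM in Nlrp3-/- mice. Here too every Nlrp3-/- library was lower, and the log2 level fell by 1.16 ± 0.18 (FDR 0.00413) and by 1.14 ± 0.21 (FDR 0.00207).

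Zfp106, an RNA-binding protein and the most abundant member over all libraries, was measured at 283, 237, 216 and 251 CPM in WT and 130.4, 167, 163 and 101 CPM in Nlrp3-/- M-MDSCs. WT G-MDSCs held 644, 392, 405 and 468 CPM, of which the first library was the highest, and Nlrp3-/- G-MDSCs 259.9, 275, 247 and 278 CPM. The log2 level fell by 0.79 ± 0.18 (FDR 0.0179) in M-MDSCs and by 0.93 ± 0.17 (FDR 0.00207) in G-MDSCs. Zfp91, a ubiquitin ligase of the non-canonical NF-κB pathway, read 88.9, 109, 90.7 and 106 CPM in WT and 62.9, 54.3, 40.04 and 53.6 CPM in Nlrp3-/- M-MDSCs, then 71.3, 69.6, 58.3 and 75.8 CPM in WT and 29.8, 47.6, 35.4 and 28 CPM in Nlrp3-/- G-MDSCs. Its groups were separate in both subsets, and its log2 level fell by 0.87 ± 0.18 (FDR 0.0112) and by 1.05 ± 0.21 (FDR 0.00377).

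Zfp608 and Zfp609 are paralogues, the former known as a repressor of the Rag genes in thymocytes and the latter as a partner of Nipbl and the Integrator complex. Zfp608 was at 82, 56.6, 43.5 and 66.4 CPM in WT and 19.2, 26.7, 27.9 and 22.2 CPM in Nlrp3-/- M-MDSCs. In G-MDSCs, where it was higher, it was at 202, 185, 166 and 166 CPM in WT and 78.9, 95.1, 63.9 and 78 CPM in Nlrp3-/- mice. It fell by 1.35 ± 0.21 (FDR 0.00413) in M-MDSCs and by 1.27 ± 0.16 (FDR 0.000177) in G-MDSCs, the smallest FDR of any member in the latter. Zfp609 was lower in amount, 21.3, 20.6, 20.8 and 17.4 CPM in WT and 8.48, 10.9, 13.1 and 8.85 CPM in Nlrp3-/- M-MDSCs. The G-MDSC libraries read 29, 22.3, 24.9 and 20.6 CPM in WT and 10.4, 10.1, 14.5 and 12.3 CPM in Nlrp3-/- mice. Zfp609 fell by 0.95 ± 0.21 (FDR 0.0163) and by 1.12 ± 0.24 (FDR 0.00641), again without overlap.

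Zfp131, a BTB zinc finger protein of transcription, gave 64, 89.7, 81.6 and 83.8 CPM in WT and 39.1, 52.3, 28.8 and 35.1 CPM in Nlrp3-/- M-MDSCs. Its G-MDSC levels were 74.7, 85.8, 88.6 and 106 CPM in WT and 31.1, 43.1, 38.5 and 37.7 CPM in Nlrp3-/- mice. All Nlrp3-/- libraries were below all WT libraries, and the log2 level fell by 1.01 ± 0.20 (FDR 0.00949) in M-MDSCs and by 1.32 ± 0.19 (FDR 0.000329) in G-MDSCs. Zfp280d was at 22.1, 22, 24 and 23.6 CPM in WT and 12.4, 14.6, 12.5 and 6.41 CPM in Nlrp3-/- M-MDSCs, the last library being the lowest. In G-MDSCs it was at 16.7, 31.4, 15.5 and 21 CPM in WT and 5.31, 5.42, 9.1 and 3.67 CPM in Nlrp3-/- mice, again apart. It fell by 0.97 ± 0.25 (FDR 0.0296) in M-MDSCs, where only 3 of the 8 fits that left out a library still called it, and by 1.92 ± 0.36 (FDR 0.00236) in G-MDSCs, where all 8 did.

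**Figure D2:**
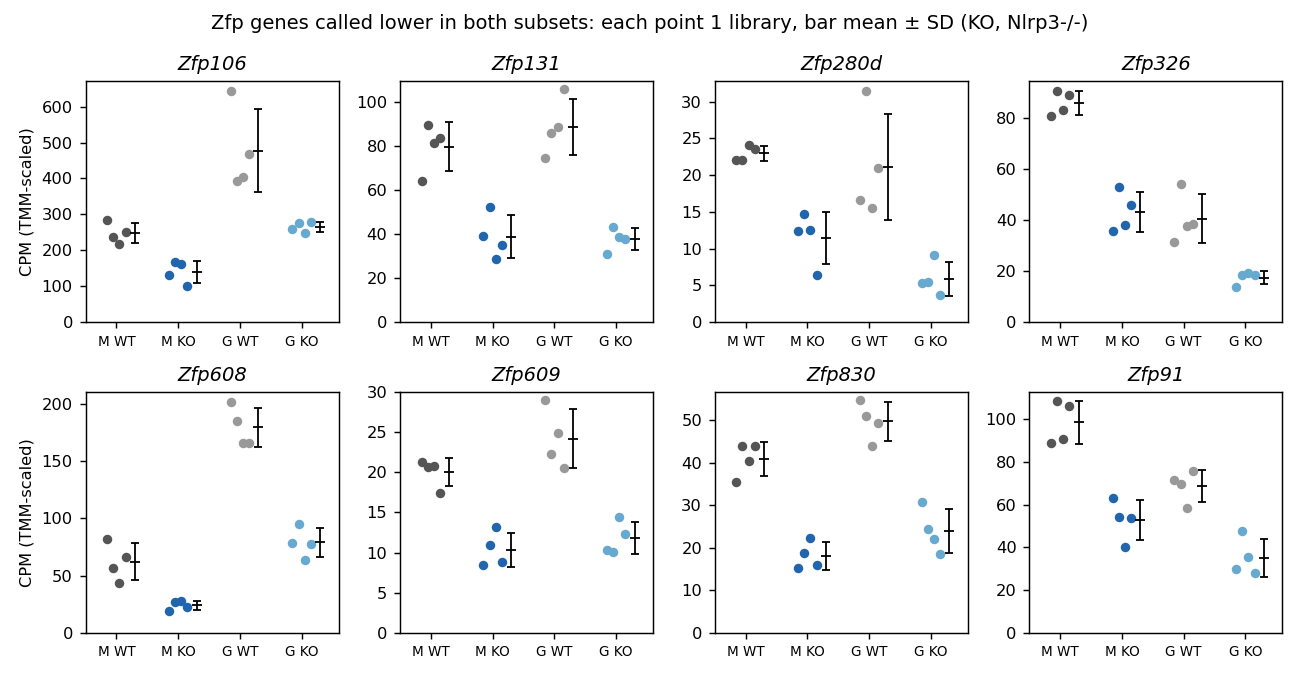
TMM-scaled CPM (vertical axes, from 0) of the 8 Zfp genes lower in both subsets, for WT and Nlrp3-/- (KO) M-MDSCs (M) and G-MDSCs (G). Each point is 1 library and the bar beside it the mean ± SD of 4; in every panel the 4 KO points lie below the 4 WT points of the same subset, as for Zfp326 in M-MDSCs (35.8 to 52.8 against 80.7 to 90.4 CPM).

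In M-MDSCs a further 2 members were called lower. Zfp451, a SUMO ligase, was at 30.4, 20.2, 26 and 33.2 CPM in WT and 14.2, 19.8, 17.3 and 14.1 CPM in Nlrp3-/- libraries and fell by 0.72 ± 0.21 (FDR 0.0468), with the highest Nlrp3-/- library just under the lowest WT library. Zfp397, which carries a SCAN domain, was at 7.24, 8.99, 4.45 and 6.5 CPM in WT and 2.56, 1.7, 3.96 and 3.33 CPM in Nlrp3-/- libraries. It fell by 1.22 ± 0.36 (FDR 0.0495), and none of the 8 fits without a library called it. In G-MDSCs neither passed the test, at -0.76 ± 0.38 (FDR 0.182) and -0.91 ± 0.31 (FDR 0.0534).

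Several abundant members were lower only on the G-MDSC list. Zfp292, a large zinc finger protein and the second most abundant member over all 16 libraries, though at rank 4 in both Nlrp3-/- groups, was at 298, 289, 315 and 337 CPM in WT and 147, 174, 178 and 168 CPM in Nlrp3-/- G-MDSCs and fell by 0.98 ± 0.14 (FDR 0.000425). In M-MDSCs it went from 151 ± 8.44 CPM (mean ± SD, n = 4) to 105 ± 16.1 CPM, a log2 fold change of -0.51 ± 0.15 (FDR 0.0451) that is under the 1.5-fold minimum. Zfp638, an RNA-binding protein that recruits the HUSH silencing complex to unintegrated viral DNA, read 195, 154, 182 and 195 CPM in WT and 114, 81.8, 80.5 and 61 CPM in Nlrp3-/- libraries and fell by 1.19 ± 0.19 (FDR 0.000783). Its M-MDSC change was -0.72 ± 0.22 (FDR 0.0578), not called, and part of its 3′ end occurs in another gene, as given above. Zfp148, the GC-box binding protein ZBP-89, was at 138, 135, 90.3 and 89.8 CPM in WT and 60.7, 67.3, 64.3 and 68.3 CPM in Nlrp3-/- G-MDSCs and fell by 0.89 ± 0.19 (FDR 0.00511). The difference between the subsets' genotype effects was tested for all members and is given further on.

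The other G-MDSC genes called lower were less abundant. Zfp516, known from brown fat, was at 88.7, 138, 88.6 and 91.7 CPM in WT and 58.6, 58.7, 67.6 and 55.5 CPM in Nlrp3-/- G-MDSCs and fell by 0.85 ± 0.19 (FDR 0.00777). Zfp62 was at 18, 27, 20.6 and 19.4 CPM in WT and 4.15, 11.1, 2.07 and 3.4 CPM in Nlrp3-/- libraries and fell by 2.12 ± 0.44 (FDR 0.00449), and Zfp800 at 65.3, 77, 53.2 and 51.3 CPM in WT and 21.9, 27.6, 31.9 and 45 CPM in Nlrp3-/- libraries, where it fell by 1.06 ± 0.24 (FDR 0.00756). Zfp318, which controls the splicing of IgD in B cells, read 54.3, 75.3, 52.8 and 58.7 CPM in WT and 21.7, 45.4, 43.6 and 41.4 CPM in Nlrp3-/- libraries and fell by 0.75 ± 0.24 (FDR 0.0447); 2 of the 8 fits without a library kept that call. Zfp322a (15.5 ± 2.84 to 8.93 ± 1.6 CPM) and Zfp407 (27.9 ± 4.54 to 18.3 ± 3.11 CPM) were called by none of these fits.

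KRAB genes are among those called lower in G-MDSCs. Zfp952 was at 5.67, 12.8, 7.02 and 6.99 CPM in WT and 2.54, 0.986, 1.86 and 2.09 CPM in Nlrp3-/- G-MDSCs and fell by 2.19 ± 0.48 (FDR 0.00654). Zfp568, which represses a placental Igf2 transcript, was at 9.0, 9.79, 5.81 and 6.99 CPM in WT and 3.92, 3.7, 2.48 and 3.67 CPM in Nlrp3-/- libraries and fell by 1.28 ± 0.40 (FDR 0.0399). Zfp445, which protects imprinted loci, was at 68, 42.2, 57.4 and 50.9 CPM in WT and 39, 36.5, 34.5 and 42.7 CPM in Nlrp3-/- libraries, so that the lowest WT library lay under the highest Nlrp3-/- library, and fell by 0.60 ± 0.19 (FDR 0.0408). Zfp472 (10.4 ± 3.03 to 4.56 ± 0.781 CPM) and Zfp266 (5.55 ± 1.79 to 1.99 ± 0.785 CPM) complete the 5 KRAB genes. Each of Zfp568 and Zfp445 was called in only 1 of the 8 fits without a library, and Zfp266 in none.

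No gene was on both subsets' lists of genes higher in Nlrp3-/- mice. In M-MDSCs, Zfp219, a partner of Sox9, was at 9.46, 8.99, 13 and 8.55 CPM in WT and 16.7, 19.1, 36.3 and 23 CPM in Nlrp3-/- libraries and rose by 1.25 ± 0.27 (FDR 0.0141). Zfp385a, an RNA-binding protein and cofactor of p53, was at 25.8, 21.2, 17.5 and 18.8 CPM in WT and 35.5, 31.2, 40.9 and 32.3 CPM in Nlrp3-/- libraries and rose by 0.77 ± 0.19 (FDR 0.0249). Zfp524, a telomere-binding protein, was at 20.04, 24.1, 25.8 and 18.8 CPM in WT and 29.5, 32.2, 48.2 and 39.1 CPM in Nlrp3-/- libraries and rose by 0.76 ± 0.20 (FDR 0.0316). No WT library reached the Nlrp3-/- range for any of them, yet Zfp385a was kept by 3 and Zfp524 by 2 of the 8 fits without a library, and Zfp219 by 7.

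In G-MDSCs the KRAB gene Zfp715 was at 36, 31.1, 48.9 and 43.5 CPM in WT and 76.8, 96.4, 78 and 64.2 CPM in Nlrp3-/- mice and rose by 0.90 ± 0.20 (FDR 0.0077), a call that all 8 fits without a library kept. Zfp869, also a KRAB gene, was at 84.7, 108, 113 and 91.7 CPM in WT and 141, 152, 143 and 201 CPM in Nlrp3-/- libraries and rose by 0.59 ± 0.17 (FDR 0.0286). Zfp592, which acts with Zmynd8 and Zfp687, was at 57.3, 44.9, 57.8 and 64.9 CPM in WT and 86.5, 95.9, 90.8 and 87.7 CPM in Nlrp3-/- libraries and rose by 0.60 ± 0.17 (FDR 0.0245). All 4 Nlrp3-/- libraries were above all 4 WT libraries for each. Zfp296, a pluripotency factor, was at 2.67, 2.7, 3.63 and 2.72 CPM in WT and 12, 9.86, 9.93 and 5.5 CPM in Nlrp3-/- libraries and rose by 1.57 ± 0.41 (FDR 0.0167). Zfp865 was at 7.33, 6.42, 15.2 and 7.77 CPM in WT, where library 3 stood well over the others, and 18.5, 19.7, 26.5 and 20.4 CPM in Nlrp3-/- mice, and it rose by 1.10 ± 0.31 (FDR 0.0259). Zfp771 (3.39 ± 1.19 to 9.32 ± 1.64 CPM) and Zfp523, a relative of Zfp143 (6.26 ± 0.956 to 13 ± 1.93 CPM), were the other two called higher, and 3 and 1 of the 8 fits without a library kept them.

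The direction of the calls went with the GC content of the transcripts. The libraries were amplified for 15 or 17 cycles, which libraries had which was not given, and the part of the cycle number in what follows was not tested. In M-MDSCs the 10 lower genes had transcripts of 39.3 to 52.3% GC (median 45.3%) and the 3 higher genes 58.9 to 62.6%. In G-MDSCs the 22 lower genes spanned 38.5 to 53.8% (median 42.9%) and the 7 higher genes 40.1 to 68.7% (median 57.0%), the KRAB genes Zfp715 (40.1%) and Zfp869 (43.7%) lying at the low end. Among members at or under the median GC content of the tested genes, 9 of 119 were lower and 0 higher in M-MDSCs and 20 of 102 lower and 2 higher in G-MDSCs. For the 0 of edgeR's quasi-likelihood test, 6 were higher at an unadjusted p under 0.05 and 0 by DESeq2. Above that median, 1 of 73 was lower and 3 higher in M-MDSCs, and 2 of 65 lower and 5 higher in G-MDSCs. The same held for genes of every name: 586 of 4966 genes at or under the median were lower and 70 higher in M-MDSCs, against 117 and 278 of the 4966 above it, and in G-MDSCs 901 and 95 of 4611 against 179 and 341 of 4610.

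Across genes, which share their libraries and are not independent replicates, Spearman's rho of log2 fold change with GC content was 0.40 over 9932 genes in M-MDSCs and 0.40 over 9221 genes in G-MDSCs, and 0.35 and 0.50 over the 192 and 167 members. When GC content and length were fitted as smooth offsets in each library, rho with GC over all genes was -0.01 and -0.02, and the members called became 6 lower and 5 higher in M-MDSCs and 10 lower and 5 higher in G-MDSCs, against 3.74% and 2.82% of all genes in M-MDSCs and 5.94% and 4.63% in G-MDSCs. Of the 8 genes lower in both subsets, Zfp131, Zfp326, Zfp608, Zfp609, Zfp830 and Zfp91 were still called in both. Zfp106 was then at -0.42 (FDR 0.162) and -0.43 (FDR 0.123), and Zfp280d was called in G-MDSCs only. Zfp292, which was called in G-MDSCs, moved from -0.98 to -0.25 (FDR 0.284), while Zfp715 moved from 0.90 to 1.39 (FDR 0.00116). An offset of this kind also takes out any difference between genotypes that follows GC content, and which fit lies nearer was not tested.

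**Figure D3:**
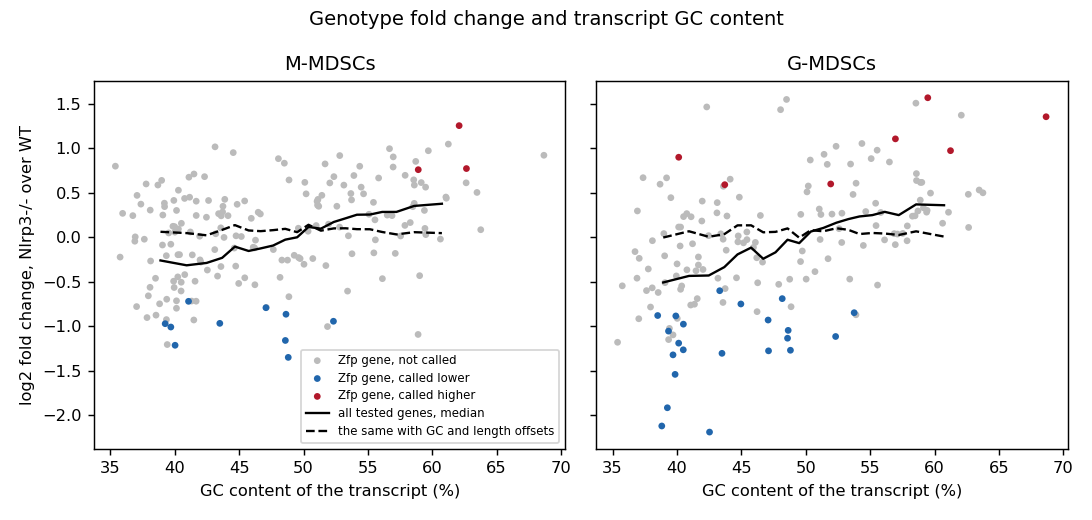
Log2 fold change in Nlrp3-/- over WT (vertical axis) against the GC content of the transcript in percent (horizontal axis). Points are Zfp genes, blue called lower, red called higher, grey not called; the solid line is the median of all tested genes in 20 bins of GC content and the dashed line the same after GC and length offsets. The solid line climbs with GC content (Spearman's rho 0.40 in each subset) and the dashed line stays near 0.

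KRAB and other members were set beside each other. In M-MDSCs edgeR's quasi-likelihood test called 0 of 80 KRAB genes lower and 0 higher, against 10 and 3 of 112 without KRAB; 8 KRAB genes were lower and 8 higher at an unadjusted p under 0.05, and DESeq2 called 2 lower and 0 higher. In G-MDSCs 5 of 66 were lower and 2 higher, against 17 and 5 of 101. Of all genes 7.1% were lower and 3.51% higher in M-MDSCs, and 11.7% and 4.7% in G-MDSCs. The SE of the log2 fold change was larger for KRAB genes, with a median of 0.33 against 0.26 in M-MDSCs and 0.41 against 0.31 in G-MDSCs, and its part in the number of calls was not tested. Their median log2 fold change was 0.12 in M-MDSCs and -0.07 in G-MDSCs, against 0.06 and 0.03 without KRAB, and at or under the median GC content it was 0.10 for 70 KRAB genes and -0.26 for 49 others in M-MDSCs, and -0.24 for 57 and -0.47 for 45 in G-MDSCs. With GC and length offsets 4 KRAB genes were higher and 0 lower in M-MDSCs (median 0.41) and 3 higher and 1 lower in G-MDSCs (median 0.18). With these offsets 2.82% of all genes were higher and 3.74% lower in M-MDSCs, and 4.63% and 5.94% in G-MDSCs. The nearest to a call among the KRAB genes of M-MDSCs without offsets were Zfp568, at -0.79 ± 0.25 (FDR 0.0601), and Zfp617, at 0.67 ± 0.22 (FDR 0.0682).

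Members were also listed by known role, and these lists were chosen with earlier results of these data known. A count above the share of all genes is therefore no test of a role. By known role, and to be read beside the 7.1% lower and 3.51% higher of all genes in M-MDSCs and the 11.7% and 4.7% in G-MDSCs, the RNA and ribosome list of 8 genes gave 3 lower (Zfp106, Zfp326, Zfp830) and 1 higher (Zfp385a) in M-MDSCs, and 4 lower (the same 3 genes and Zfp638) and 0 higher in G-MDSCs, where 0 were higher at an unadjusted p under 0.05 or by DESeq2. Zfp622 and Zfp593, which mature the large ribosomal subunit, and Zfp598, the sensor of collided ribosomes, were not called in either subset. Zfp622 was at 112 ± 7.94 CPM in WT and 141 ± 33.5 CPM in Nlrp3-/- M-MDSCs, and at 186 ± 31.8 and 236 ± 66.4 CPM in G-MDSCs. Among 3 ubiquitin, SUMO and spindle genes, Zfp91 and Zfp451 were lower in M-MDSCs and Zfp91 in G-MDSCs, whereas Zfp207, a spindle assembly protein, was at -0.0031 ± 0.16 (FDR 0.992) and -0.15 ± 0.21 (FDR 0.675).

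The chromatin and transcription cofactors numbered 15 members of 19 listed; Zfp423, Zfp462, Zfp521 and Zfp532 missed the count minimum. In M-MDSCs 2 were lower (Zfp131, Zfp609), and in G-MDSCs 5 were lower (Zfp131, Zfp148, Zfp292, Zfp516, Zfp609) and 1 higher (Zfp592). Zfp687, the partner of Zfp592 beside Zmynd8, went from 26, 8.78, 37.3 and 35 CPM in WT to 51.2, 52.3, 44.3 and 56.6 CPM in Nlrp3-/- G-MDSCs, a separate range with a log2 fold change of 0.84 ± 0.32 (FDR 0.082) that did not pass; WT library 2 was far under the others. Zfp217 (CoREST and CtBP cofactor), Zfp281 (NuRD partner), Zfp335, Zfp384, Zfp410 (activator of Chd4), Zfp644 (partner of the methyltransferases G9a and GLP), Zfp703 and Zfp827 were called in neither subset, with M-MDSC log2 fold changes from -0.61 (Zfp384) to 0.30 (Zfp335). Of 7 KRAB repressors of retroelements and imprinted genes, Zfp445, Zfp568 and Zfp809 were members. Zfp809, which silences proviruses in stem cells, was at 13.7 ± 2.71 and 13.5 ± 3.37 CPM in M-MDSCs and 11.8 ± 2.41 and 11.9 ± 2.02 CPM in G-MDSCs, with no call. Of the immune cell list, Zfp318 was lower in G-MDSCs, and Zfp341, a regulator of Stat3, was at 0.38 ± 0.42 (FDR 0.578) in M-MDSCs and 0.71 ± 0.35 (FDR 0.178) in G-MDSCs.

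Whether the genotype effect differed between the subsets was tested for each member in a model of all 16 libraries. None of 193 was called, with a smallest FDR of 0.790 by edgeR's quasi-likelihood test, and none by DESeq2; at an unadjusted p under 0.05 there were 11 members, 5.70%, against 4.49% of 10696 genes, of which 3 (0.028%) had an FDR under 0.05. Zfp952, lower in Nlrp3-/- G-MDSCs, had a difference of effects of -1.71 ± 0.54 (FDR 0.93). For Zfp292, called in G-MDSCs only, the difference was -0.36 ± 0.20 (FDR 0.992), and for Zfp385a, called in M-MDSCs only, -0.50 ± 0.61 (FDR 0.992). A call in 1 subset alone was thus not shown to be a difference between the subsets.

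A KAP1 list of 36 genes, 35 of them tested, was followed. It holds Trim28, Setdb1, HP1 and NuRD genes and further chromatin genes such as Atrx, Daxx, Kdm1a and Rcor1. This list too was chosen with earlier results of these data known. In M-MDSCs 6 were lower in Nlrp3-/- mice and 0 higher (median log2 fold change -0.40), namely Atrx, Cbx1, Cbx3, Gatad2b, Hdac2 and Kdm1a. In G-MDSCs 9 were lower and 0 higher (median -0.45): Atrx, Cbx1, Cbx3, Cbx5, Chd3, Dnmt3a, Gatad2b, Kdm1a and Morc3. Cbx5 and Chd3 overlapped between the genotypes there. Of the 8 fits without a library, 3 kept Gatad2b and 2 kept Hdac2 in M-MDSCs. In G-MDSCs 2 kept Cbx5, 4 kept Chd3 and 5 kept Kdm1a, and all 8 kept the remaining calls of both subsets. Of all genes 7.1% were lower in M-MDSCs and 11.7% in G-MDSCs. At an unadjusted p under 0.05, 2 were higher in M-MDSCs and 0 in G-MDSCs, and DESeq2 called 0 higher in either. With GC and length offsets the counts were 4 and 0 in M-MDSCs and 8 and 1 in G-MDSCs, beside 3.74% and 5.94% of all genes lower. Cbx3, an HP1 protein, went from 92.5 ± 27.3 CPM in WT to 39.1 ± 8.65 CPM in Nlrp3-/- M-MDSCs and fell by 1.23 ± 0.22 (FDR 0.00706); in G-MDSCs it went from 109 ± 21.4 to 47.5 ± 10.2 CPM and fell by 1.29 ± 0.20 (FDR 0.000796). Trim28 itself was at 67.9 ± 13.1 CPM in WT and 79.9 ± 12.7 CPM in Nlrp3-/- M-MDSCs and at 46.9 ± 7.16 and 56.3 ± 16.8 CPM in G-MDSCs, with no call (FDR 0.371 and 0.615). Setdb1, at 9.99 ± 3.5 and 3.8 ± 2.54 CPM in WT and Nlrp3-/- M-MDSCs, was not called by edgeR's quasi-likelihood test (FDR 0.087) but was called lower by DESeq2 (log2 fold change -1.34, adjusted p 0.0323), and it was at 5.0 ± 1.58 and 5.09 ± 2.58 CPM in G-MDSCs, with no call by either.

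Between the subsets the Zfp genes differed in both directions. In WT mice 43 of 186 tested members were lower and 43 higher in G-MDSCs than in M-MDSCs, against 27.1% and 26.3% of all 9739 genes (53.3% together). In Nlrp3-/- mice 46 of 191 were lower and 38 higher, against 27.4% and 23.7% of 10071 genes (51% together). The median log2 fold changes were -0.02 and -0.14, against -0.05 and -0.12 for all genes. In WT mice 46 members were lower and 41 higher in G-MDSCs without overlap, against 26.4% and 25.4% of all genes. A member expressed in 1 subset only passed the filter through that subset and had to differ, and the counts rest on the scaling. TMM factors over all 16 libraries, used for the printed CPM, were 1.20 to 1.46 in M-MDSCs and 0.723 to 0.805 in G-MDSCs. Each fit of 2 groups took its own factors from its 8 libraries. With library size alone (median of all genes -0.79 and -0.83), 88 members were lower and 15 higher in WT mice and 89 and 13 in Nlrp3-/- mice, against 52% and 12% of all genes in WT and 50% and 11.4% in Nlrp3-/- mice.

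Zfp831 was the member with the largest excess in G-MDSCs. It was at 5.75, 4.35, 3.92 and 4.45 CPM in M-MDSCs and 58.7, 48, 48.2 and 65.7 CPM in G-MDSCs of WT mice, and at 3.37, 8.69, 6.05 and 6.54 CPM in M-MDSCs and 66.9, 44.4, 63.5 and 54.7 CPM in G-MDSCs of Nlrp3-/- mice, so that the subsets lay far apart in both genotypes. The log2 level rose by 3.57 ± 0.22 (FDR 1.11e-07) in WT and by 3.12 ± 0.28 (FDR 5.09e-07) in Nlrp3-/- mice, and by 2.83 and 2.41 with library size scaling. The KRAB genes Zfp715 and Zfp869 were also higher in G-MDSCs: Zfp715 was at 12.8, 15.7, 10.7 and 14 CPM in WT M-MDSCs, against the 31.1 to 48.9 CPM of WT G-MDSCs given above, and rose by 1.58 ± 0.21 (FDR 5.75e-05). Zfp869 was at 37.8, 46.2, 40.6 and 27.4 CPM in WT M-MDSCs and rose by 1.38 ± 0.19 (FDR 6.33e-05) in G-MDSCs. In Nlrp3-/- mice the 2 genes rose by 2.18 ± 0.23 and 1.68 ± 0.19. Zfp597 rose by 2.00 ± 0.24, Zfp608 by 1.54 ± 0.20 and Zfp292 by 1.04 ± 0.14 in WT G-MDSCs, which completes the 6 with the smallest p there. Zfp687 led with Zfp831 in Nlrp3-/- mice, at 11.8, 10.2, 12.1 and 12.6 CPM in M-MDSCs and 51.2, 52.3, 44.3 and 56.6 CPM in G-MDSCs, and rose by 2.01 ± 0.20 (FDR 1.70e-06).

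Zfp385a showed the reverse. WT M-MDSCs held 25.8, 21.2, 17.5 and 18.8 CPM and WT G-MDSCs 2.33, 3.38, 0.242 and 4.27 CPM, and Nlrp3-/- M-MDSCs 35.5, 31.2, 40.9 and 32.3 CPM against 3.92, 0.986, 3.31 and 3.14 CPM in G-MDSCs. It fell by 3.10 ± 0.47 (FDR 0.000156) in WT and by 3.72 ± 0.34 (FDR 5.10e-07) in Nlrp3-/- mice, without overlap. Its G-MDSC levels rest on few counts, and the 0.242 CPM of WT library 3 lay under the 0.726 CPM that 3 counts make there. Zfp629 was at 4.53, 7.84, 9.59 and 4.23 CPM in Nlrp3-/- M-MDSCs and had no count in the 4 Nlrp3-/- G-MDSC libraries; 3 counts over that group would be 0.176 CPM, so against the M-MDSC mean of 6.55 CPM its level was at least 37.2-fold lower. In WT G-MDSCs it was at 0.333, 1.01, 0.726 and 0 CPM. Zfp629 had 10 counts in exactly 8 libraries, all of them M-MDSCs. It passed the filter through M-MDSCs alone and had to differ. Zfp277 was at 16.7, 20.9, 20.7 and 17.1 CPM in M-MDSCs and 2.67, 4.73, 4.84 and 1.94 CPM in G-MDSCs of WT mice and fell by 2.37 ± 0.31 (FDR 4.42e-05). Zfp90, a KRAB gene, was at 6.86, 6.04, 9.26 and 8.55 CPM in WT M-MDSCs and 1.0, 2.03, 0.726 and 0.777 CPM in WT G-MDSCs, without overlap, and fell by 2.74 ± 0.42 (FDR 0.000155). Zfp90 had 10 counts in exactly 8 libraries and in no WT G-MDSC library, so the count minimum favoured this difference.

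Zfp706, known from the exit of embryonic stem cells from self-renewal, was at 99.99, 73.7, 83.9 and 82.4 CPM in M-MDSCs and 35.3, 44.2, 42.8 and 34.2 CPM in G-MDSCs of WT mice and fell by 1.11 ± 0.17 (FDR 0.000129), and in Nlrp3-/- mice by 1.34 ± 0.16; its 3′ end shares words with a copy, as said above. Zfp644 fell by 1.01 ± 0.16 (FDR 0.000184) and Zfp362 by 1.36 ± 0.20 in WT G-MDSCs. Zfp326, lower in Nlrp3-/- mice in both subsets, was also lower in G-MDSCs than in M-MDSCs, by 1.08 ± 0.18 in WT and 1.42 ± 0.22 in Nlrp3-/- mice, while Zfp608 was higher in G-MDSCs in both genotypes. Zfp800 and Zfp358 were lower in Nlrp3-/- G-MDSCs than M-MDSCs by 1.66 ± 0.26 and 2.32 ± 0.37. Among the chromatin cofactors 6 of 15 were higher and 1 lower in WT G-MDSCs, and among the 8 RNA and ribosome genes 3 were higher (Zfp106, Zfp622, Zfp638) and 3 lower (Zfp326, Zfp385a, Zfp593). Of all genes 26.3% were higher and 27.1% lower there. For Zfp622 the sign turned with library size scaling, to -0.01 in WT and -0.09 in Nlrp3-/- mice.

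**Figure D4:**
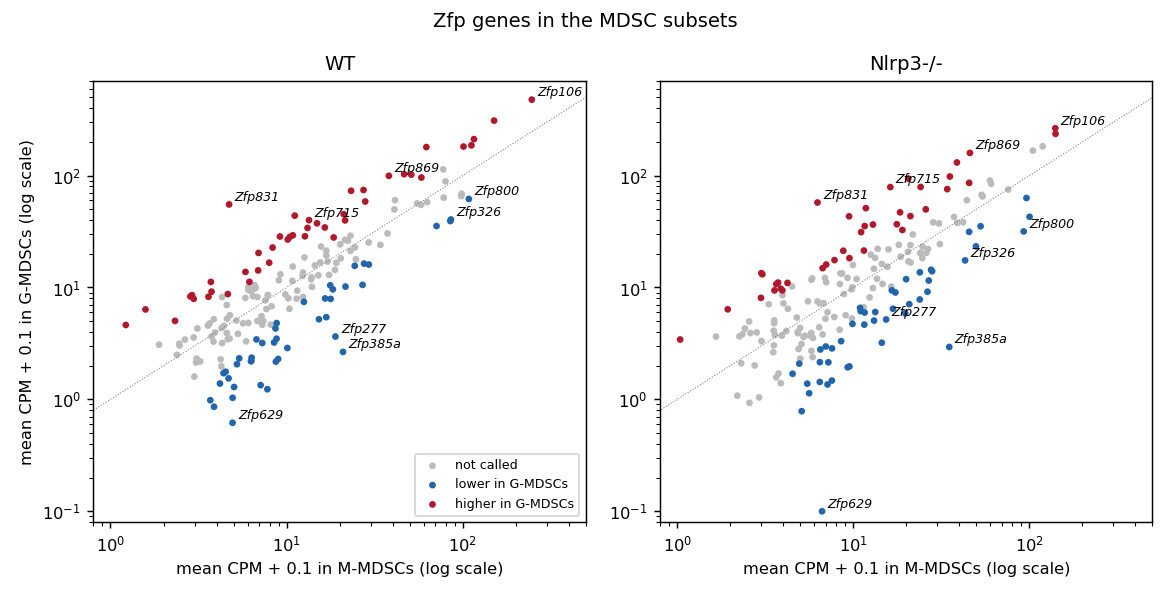
Mean CPM + 0.1 of each tested Zfp gene in M-MDSCs (horizontal, log scale) and G-MDSCs (vertical, log scale), in WT mice on the left and Nlrp3-/- mice on the right; the dotted line marks equal levels. Red points were called higher and blue points lower in G-MDSCs, with Zfp831 far above the line and Zfp385a and Zfp629 far below it in both genotypes.

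Summed over all 193 members, TMM-scaled levels of 3706 ± 74.8 CPM (mean ± SD of 4 libraries) were measured for WT M-MDSCs, 3380 ± 309 CPM for Nlrp3-/- M-MDSCs, 4755 ± 142 CPM for WT G-MDSCs and 4254 ± 84.9 CPM for Nlrp3-/- G-MDSCs. The order of the subsets in this sum rests on the scaling. As a share of all counts it was reversed, at 0.431 to 0.497% in M-MDSCs and 0.313 to 0.383% in G-MDSCs. The most abundant members of WT M-MDSCs were Zfp106 (247 ± 27.9 CPM), Zfp292 (151 ± 8.44), the KRAB gene Zfp871 (116 ± 5.49), Zfp622 (112 ± 7.94) and Zfp800 (108 ± 4.98). In Nlrp3-/- M-MDSCs Zfp622 (141 ± 33.5 CPM) and Zfp106 (140.3 ± 31.2) led, with overlapping libraries. WT G-MDSCs had Zfp106 (477 ± 116 CPM) and Zfp292 (309.8 ± 20.9) first, then Zfp871 (212 ± 26.2), Zfp622 (186 ± 31.8) and Zfp638 (182 ± 19.5), which lay within their spread of each other. In Nlrp3-/- G-MDSCs Zfp106 (265 ± 14 CPM) and Zfp622 (236 ± 66.4) were followed by Zfp871 (183 ± 20.1), Zfp292 (167 ± 13.7) and Zfp869 (159 ± 28.5). Zfp871 was not called between genotypes, at 0.06 ± 0.17 (FDR 0.858) in M-MDSCs and -0.30 ± 0.16 (FDR 0.203) in G-MDSCs.

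Zinc finger genes of this kind lie in clusters, and the expressed members did so as well. Chromosome 7 held 39 members, chromosome 17 22, chromosome 8 18 and chromosome 13 17. With gaps of at most 500000 bases there were 15 runs of 3 or more members, together 81 genes. The longest, at chr13:67312998-67729173 (mm10), held 12 members, 8 with KRAB (Zfp595, Zfp953, Zfp429, Zfp874a, Zfp874b, Zfp58, Zfp87, Zfp748, Zfp729b, Zfp729a, Zfp738 and Zfp65), of which none was called between genotypes, while 2 were higher in WT G-MDSCs than in M-MDSCs. A run of 9 KRAB genes at chr17:21008903-22867134 (Zfp160, Zfp51, Zfp53, Zfp52, Zfp942, Zfp943, Zfp944, Zfp758 and Zfp945) had no genotype call, and 1 lower and 3 higher in WT G-MDSCs than M-MDSCs. In the run at chr17:32765496-33631779 (Zfp871, Zfp870, Zfp472, Zfp952, Zfp955a, Zfp955b, Zfp101 and Zfp414), 2 of 5 tested, Zfp472 and Zfp952, were lower in Nlrp3-/- G-MDSCs, and 4 of 8 lower and 1 higher in G-MDSCs than M-MDSCs of WT mice, with 5 and 0 in Nlrp3-/- mice. Of all genes 11.7% were lower in Nlrp3-/- than in WT G-MDSCs. Between subsets 27.1% of all genes were lower and 26.3% higher in WT G-MDSCs, and 27.4% and 23.7% in Nlrp3-/- G-MDSCs.

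Other zinc finger families served as comparators. Of 35 tested Zbtb genes, which pair fingers with a BTB domain, 3 were lower and 1 higher in Nlrp3-/- M-MDSCs (median 0.14), and of 32 in G-MDSCs 4 were lower and 0 higher (median -0.05), with 3 higher at an unadjusted p under 0.05 and 1 by DESeq2. None of the 13 and 8 tested Zscan and Zkscan genes, which carry a SCAN domain, was called by edgeR's quasi-likelihood test (median 0.16 and 0.10), with 0 and 1 lower and 1 and 0 higher at an unadjusted p under 0.05 and 1 lower by DESeq2 in G-MDSCs. In WT G-MDSCs against M-MDSCs, 4 of 32 Zbtb genes were lower and 12 higher, with a median log2 fold change of 0.54 beside the -0.02 of the Zfp genes. Of all genes 27.1% were lower and 26.3% higher there, with a median of -0.05, or -0.79 with library size scaling. In Nlrp3-/- mice DESeq2 called 5 of 35 Zbtb genes lower and 9 higher in G-MDSCs, against 4 and 13 of 32 in WT mice. Over all genes DESeq2 called 2743 lower and 2548 higher of 10071 in Nlrp3-/- mice, and 2669 and 2599 of 9739 in WT mice. Between genotypes 7.1% of all genes were lower and 3.51% higher in M-MDSCs, and 11.7% and 4.7% in G-MDSCs.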

How the data were processed

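Sorted splenic M-MDSCs and G-MDSCs of 4 WT and 4 Nlrp3-/- mice were sequenced by QuantSeq 3′ FWD, with 15 or 17 amplification cycles (which libraries had which was not given). The authors mapped reads of 75 bases to mm10 with hisat2 2.1.0, counted them per gene with strand by htseq-count, and deposited raw counts per gene symbol and library, which were used unchanged. Each sample is 1 mouse, and groups and replicate numbers were taken from the labels. Totals were 2295967 to 6079866 counts. A floor of 3 counts was 0.348 to 1.17 CPM, which covers counting error only.

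Counts were fitted in R 4.3.3 with edgeR 4.0.16 (filterByExpr, TMM, quasi-likelihood F test, Benjamini-Hochberg FDR over all tested genes), each pair of groups on its own 8 libraries. A call is an FDR under 0.05 and a fold change above 1.5. SE is the log2 fold change over the square root of F, and fold changes are those of the fit. Printed CPM, their sums and their overlap between groups use TMM factors of all 16 libraries. A printed fold change can therefore differ from the ratio of the printed CPM. A prior count of 2 entered only the log2 levels used for the offsets and for the correlations between libraries. The interaction was fitted on all 16 libraries. DESeq2 1.42.0, the exact test, other scalings and filters, GC content and length offsets (splines with 4 df), a replicate block and leaving out each library were the alternatives. Scripts were tested on simulated counts. Gene positions, GC content, lengths and translated transcripts came from GENCODE for mm10, where all 193 members were found, 2 by an older symbol, and promoters from RefSeq.

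The members and gene lists were chosen with earlier results of these data known. Named genes are, in each comparison, the 6 called members per direction with the smallest p and no overlap, the 5 most abundant per group, all members of the role lists and the called genes of the KAP1 list; further called members are named where a count is spelled out. No 2 libraries of a group held counts that agreed within counting noise (chi-square per degree of freedom 7.25 or more). Same-numbered WT and Nlrp3-/- samples are different mice (correlations of deviations -0.45 to 0.02), whereas same-numbered M-MDSCs and G-MDSCs are the same mouse by the labels (0.01 to 0.40).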

Additional observations from a re-analysis of the deposited data

Results flagged for a closer look

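In groups of 4 libraries, the lowest or highest library of each group was set against the other 3 by Dixon's criterion for 18 genes of the genotype results and the summed level of all members, 76 groups in all, of which chance flags about 1 in 20. In 4 groups a library stood apart. Zfp296 read 3.63 CPM in WT G-MDSC library 3, above the 2.67 to 2.72 CPM of the others and still below the Nlrp3-/- libraries. Zfp326 read 13.6 CPM in Nlrp3-/- G-MDSC library 1, under the 18.2 to 19.0 CPM of the others. Zfp771 read 7.53 CPM in WT M-MDSC library 4, under 8.99 to 9.09 CPM. Zfp865 read 15.2 CPM in WT G-MDSC library 3, against 6.42 to 7.77 CPM, and this gene's call in G-MDSCs was kept by 2 of the 8 fits without a library. No cause was tested.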

How the results depend on the processing

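In M-MDSCs the 10 members lower became 6 with GC and length offsets, 5 with a replicate block and 0 with both, and the 3 higher became 12 with library size scaling, 5 with a minimum of 10 counts in every library, 8 by DESeq2, 6 by the exact test, 5 with offsets, 1 with the block and 0 with block and offsets. In G-MDSCs the 22 lower became 10 with offsets and 5 with block and offsets, and the 7 higher became 12 with library size scaling, 4 with the minimum of 10 counts, 15 by DESeq2, 14 by the exact test, 15 in the model of all libraries, 2 with the block and 1 with block and offsets. Between subsets, library size scaling gave 88 lower and 15 higher in WT and 89 and 13 in Nlrp3-/- mice, and the minimum of 10 counts, which tests fewer genes, 20 and 29 lower. Causes other than that were not tested. Same-numbered WT and Nlrp3-/- samples are different mice, and whether they share anything beyond the number, such as a day of sorting, was not given. What the loss of a call under that block means was not tested. Pairing the subsets of a mouse gave 44 lower and 44 higher in WT and 48 and 40 in Nlrp3-/- mice and moved no count by over 1.5 times. No difference between genotype effects was called under any alternative run.

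Without 1 library, members lower ranged from 5 (without Nlrp3-/- library 4) to 13 (without Nlrp3-/- library 1) and higher from 0 to 10 in M-MDSCs, from 15 to 18 and 2 to 8 in G-MDSCs, from 33 to 42 and 37 to 44 between subsets in WT, and from 36 to 45 and 31 to 37 in Nlrp3-/- mice. G-MDSC higher calls fell to 2 without Nlrp3-/- library 2. Library size scaling turned the sign of the subset difference for the named Zfp genes Zfp131 (-0.59), Zfp217 (-0.00866), Zfp592 (-0.72) and Zfp622 (-0.0128) in WT and for Zfp524 (-0.63) and Zfp622 (-0.0888) in Nlrp3-/- mice. For Zfp genes named in a comparison and called there in either fit, no other setting run reversed a sign. Values that were not called can turn, as for Trim28 with GC and length offsets (0.25 to -0.03 in M-MDSCs and 0.18 to -0.07 in G-MDSCs). Members under about 2 CPM rest on few counts, and larger changes than those called may be missed there.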
